A study of Mus musculus with 6 samples.

Results

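The genes described here encode the proteins of the cytosolic ribosome. They were chosen by symbol: every row whose symbol is Rpl or Rps followed by a digit, and Rplp0, Rplp1, Rplp2 and Rpsa, leaving out symbols that carry -ps and the Rps6 kinases. This rule took 86 of the 32285 gene rows, 52 with an Rpl symbol and 34 with an Rps symbol. They lie on 19 chromosomes, 4 of them (Rpl10, Rpl36a, Rpl39 and Rps4x) on the X chromosome. The rule goes by symbol alone, so it also takes Rps19bp1, which encodes a binding protein of Rps19 and no structural subunit, and it misses genes such as Fau and Rack1, which encode ribosomal proteins under other names.

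The data are single-nucleus RNA-seq counts from the cortex of 7.5-month-old mice, made after a sort for nuclei without NeuN, a protein of neuronal nuclei. The 6 libraries form 3 groups of 2: 5xFAD-M28L and 5xFAD-P522R, which carry those variants of phospholipase C-γ2 (Plcg2), and 5xFAD without a variant. All groups, the last included, therefore carry the 5xFAD transgenes, which drive amyloid deposition from a neuronal promoter, and no group without them was compared. Each library targeted 10000 nuclei, 5000 from male and 5000 from female mice, so each is a pool of animals. Nothing states that replicates 2 and 3 are separate sets of animals, and p-values then speak only of library-to-library spread, possibly technical.

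A ribosome is built from a few ribosomal RNAs and a large set of proteins, nearly all present in a single copy, and the genes for these proteins are among the most steadily transcribed in any cell. Most of their mRNAs begin with a C followed by a run of pyrimidines, the 5′ terminal oligopyrimidine (TOP) motif, through which growth signalling by mTOR and the RNA-binding protein Larp1 sets how much of them is translated and kept. Ribosomal protein mRNAs are short, stable and mostly cytoplasmic, so the counts of a nuclear library measure the nuclear part of the pool and whatever cytoplasm stays with a nucleus.

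Letters around the annotated starts are in the RefSeq promoter table (GRCm38.p6), which held 78 entries for 66 of the 86 genes. A pyrimidine run there need not be a TOP start. Windows from 35 bases before to 25 bases after the annotated start are given for genes whose values are described below, written on the gene's own strand, with the longest pyrimidine run between 10 bases before and 25 bases after the start in capitals. Rpl38 and Rplp2 have a run that spans the annotated start, and Rpl15 a longer one. Rpl10a, Rpl13, Rpl36a and Rpl3l are described by cell type below, and their marked runs do not include the start. In Rpl13 the run goes on upstream of the searched bases. Rpl10a has 2 annotated starts, and the marked run of the second reaches the last searched base, so it may go on downstream. Rpl3l, a paralog of Rpl3 known from heart and skeletal muscle, also has 2 in the table, and the upstream one is shown, which has no long run.
Rpl38 (chr11:114668545-114668604, plus strand): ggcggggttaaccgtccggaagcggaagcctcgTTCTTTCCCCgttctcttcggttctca
Rplp2 (chr7:141447616-141447675, plus strand): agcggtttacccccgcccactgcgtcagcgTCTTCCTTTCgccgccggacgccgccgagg
Rpl15 (chr14:18270962-18271021, minus strand): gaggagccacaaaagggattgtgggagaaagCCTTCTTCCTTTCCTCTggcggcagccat
Rpl13 (chr8:123102315-123102374, plus strand): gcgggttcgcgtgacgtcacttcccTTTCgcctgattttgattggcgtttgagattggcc
Rpl10a, one start (chr17:28328436-28328495, plus strand): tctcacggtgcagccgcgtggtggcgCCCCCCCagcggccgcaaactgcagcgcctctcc
Rpl10a, the other start (chr17:28328530-28328589, plus strand): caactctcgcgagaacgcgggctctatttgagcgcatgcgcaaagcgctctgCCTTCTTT
Rpl36a (chrX:134585619-134585678, plus strand): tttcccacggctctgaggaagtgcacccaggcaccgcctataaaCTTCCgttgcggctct
Rpl3l (chr17:24727791-24727850, plus strand): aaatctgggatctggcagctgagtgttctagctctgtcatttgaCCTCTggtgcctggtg

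Over the 78 entries, a pyrimidine run of 7 or more bases in those 35 bases was present in 46.2%, against 20.5% of all 32851 promoter entries. In the whole 300 bases, 250 before and 50 after the start, CTTTCC was found on either strand in 51.3% of the entries, against 26.6% of all entries. The letters CCGGAAG, bound by ETS factors, were found in 34.6%, against 8.86% of all. TATAAA was found in 8.97%, against 13.6% of all. These matches describe the letters only.

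The 86 genes collected 573582 UMIs (unique transcript molecules) in 62687 barcodes, and the 10 rows with the most held 23.0% of them. Rpl10l had no UMI, Rpl39l had 18, Rpl3l 184 and Rps27rt 255. Libraries had 53326947 to 72288942 UMIs, and the median per barcode was lowest in 5xFAD replicate 2, at 3842 UMIs. The genes' share of all UMIs was 0.148% and 0.145% in 5xFAD-M28L (replicates 2 and 3, the order used for pairs of values throughout), 0.138% and 0.133% in 5xFAD-P522R, and 0.176% and 0.159% in 5xFAD. Pairs of libraries shared 20 to 71 barcode sequences, and 62162 of the barcodes were distinct. Of the members, 23 overlap another gene row of the files, 1 of them on the same strand, and 30 have a small nucleolar RNA inside. The 23 leave out overlaps with genes that have no row, such as Gm20388 at Rpl13 and Gm49383 at Rpl36al, both on the member's strand. How reads shared with processed copies elsewhere in the genome were counted is not given in the sources used here.

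Nuclei were assigned to cell types by the markers they held, not by clustering. A nucleus entered a type's gate when at least 3 markers of the type were detected and the detected share of that list was at least 2 times that of any other type. A nucleus with 3 or more border macrophage markers could not enter the microglia gate. No ribosomal protein gene is a marker. This placed 53463 nuclei (85.3%) in 11 gates. The gate rule used these markers, so their level in their own gate is no independent check of it. The 14 oligodendrocyte markers summed to 16080 to 16548 CPM (a gene's UMIs scaled to a common total per gate and library) in the oligodendrocyte gate. In the microglia gate they summed to 508 to 790 CPM. The 20 microglia markers summed to 17481 to 19896 CPM in the microglia gate. All 20 were also detected in the oligodendrocyte gate, at 161 to 261 CPM. Endothelial-gated nuclei carried the 14 endothelial markers at 12412 to 25649 CPM. Border-macrophage-gated nuclei also held the microglia markers, at 9394 to 11712 CPM, and OPC-gated nuclei held the inhibitory neuron markers at 5555 to 6210 CPM.

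Cell types differed widely in how much of their nuclear RNA came from these genes. Endothelial-gated nuclei stood far above every other sizeable gate, microglia, border macrophages and mural cells (pericytes or smooth muscle) came next, and excitatory neurons were lowest. The share of UMIs was 0.572% to 1.54% over the 6 libraries in 360 endothelial-gated nuclei (median 1.19%). It was 0.182% to 0.301% in 377 mural nuclei, 0.186% to 0.250% in 7707 microglia, 0.168% to 0.252% in 241 border macrophages and 0.123% to 0.280% in 165 fibroblasts. Astrocytes (3464 nuclei) had 0.137% to 0.210%, oligodendrocytes (33134 nuclei) 0.124% to 0.186%, OPCs, the oligodendrocyte precursors (6249 nuclei), 0.107% to 0.139%, and inhibitory neurons (879 nuclei) 0.0984% to 0.138%. The 881 excitatory neurons had 0.0814% to 0.0934%, and both neuron gates hold what neurons remained after a sort that removes most of them. Only 6 nuclei in 4 libraries were T-cell-gated, and their share was 0.673% to 0.854%.

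**Figure D1:**
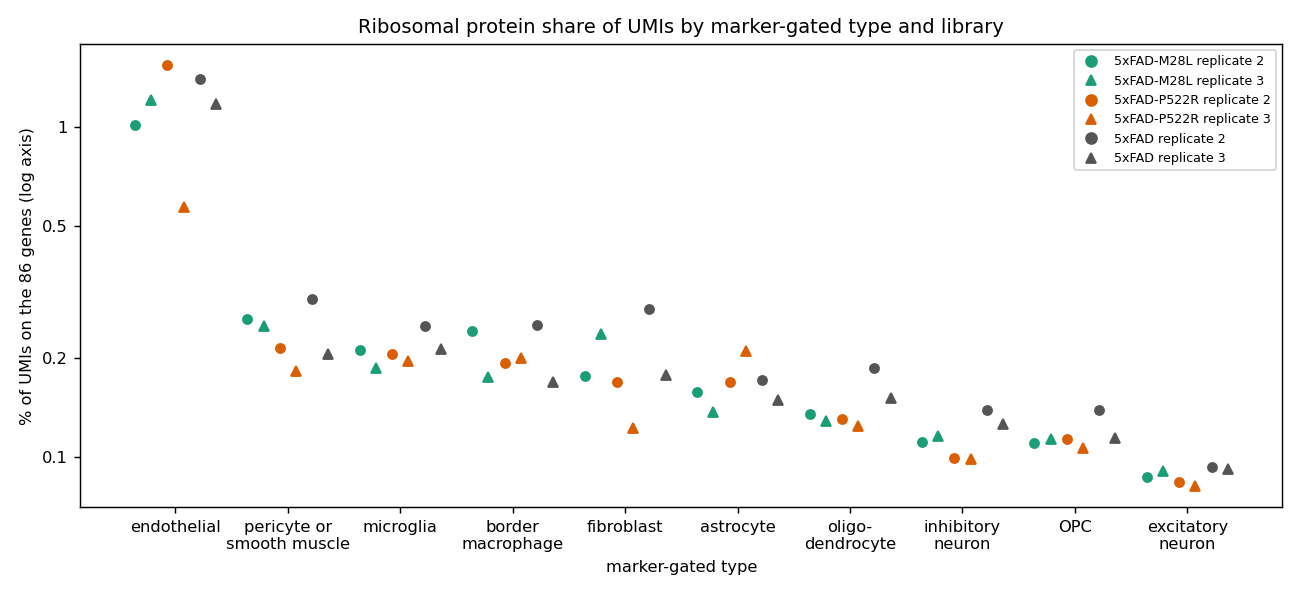
Share of UMIs on the 86 ribosomal protein genes (log axis) in each marker-gated type, 1 point per library, coloured by genotype, circles for replicate 2 and triangles for replicate 3. Endothelial-gated nuclei lay between 0.572% and 1.54%, above all points of the other gates shown, and excitatory neurons between 0.0814% and 0.0934%, below all others.

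Within single libraries the gates were set against the oligodendrocytes of the same library. Relative to oligodendrocytes of the same library, the share was 4.61 to 11.9 times as high in endothelial-gated nuclei, 1.34 to 1.58 times in microglia and 1.36 to 1.95 times in mural cells, each higher in 6 of 6 libraries. It was 0.502 to 0.706 times in excitatory neurons, 0.748 to 0.880 times in OPCs and 0.743 to 0.899 times in inhibitory neurons, each lower in 6 of 6. Astrocytes had 0.918 to 1.69 times the oligodendrocyte share and exceeded it in 4 of 6 libraries. Neighbours such as mural cells, microglia, border macrophages and fibroblasts overlapped in their ranges.

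The endothelial difference covered nearly the whole family. In endothelial-gated nuclei 81 of the 83 members that passed the count filter were higher than the mean of the other types and 0 were lower (edgeR's quasi-likelihood test with the library as a block, Benjamini-Hochberg adjusted p under 0.05), where 20.8% of the 15872 genes tested were called higher and 20.8% lower. At an unadjusted p under 0.05 there were 82 members and 47.5% of all genes. The members' median log2 difference was 2.72, against −0.19 over all genes. This comparison was added after the shares had been seen, since 5xFAD-P522R replicate 3 had only 12 such nuclei and the minimum was lowered to 10. Leaving out each library in turn gave 80 to 82 members higher. The share of all genes called in those fits is not given here.

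Large-subunit proteins were among the members with the largest differences. Rpl38, whose loss in the mouse Tail short mutant alters translation of Hox mRNAs, had 256 and 292 CPM in 5xFAD-M28L, 294 and 95.6 in 5xFAD-P522R, and 405 and 408 in 5xFAD endothelial-gated nuclei, against medians of 12.98 to 26.3 in oligodendrocytes, OPCs, microglia, astrocytes and both neuron gates. It was higher by 3.64 on the log2 scale (standard error 0.12, adjusted p = 1.5e-34). Rpl7, Rpl28 and Rpl8 had 3.50, 3.49 and 3.44. The stalk proteins Rplp0, Rplp1 and Rplp2, which recruit elongation factors, had 2.97, 3.16 and 2.86, and Rpsa, a small-subunit protein also known as the laminin receptor, had 2.81. All of these passed the threshold. Leaving aside the T cell gate, whose gene levels were not computed, the endothelial Rpl38 values overlapped those of no other gate. The next highest was 52.7 in 1 library of fibroblasts.

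The smallest difference was that of a paralog. Rpl7l1, related to Rpl7, had a log2 difference of 0.22 (SE 0.26, adjusted p = 0.56), while Rpl7 itself had 3.50. Rps19bp1 had 1.18 (adjusted p = 0.051). Rpl22l1, the paralog that can stand in for Rpl22, was higher by 1.19, and Rpl22 by 1.80. Rpl10a and the X-linked Rpl10 were higher by 1.62 and 1.73, below the median, while the X-linked Rps4x, Rpl36a and Rpl39 were higher by 3.31, 3.18 and 3.18. Rpl7l1 had 21.1 and 15.1 CPM in 5xFAD-M28L, 14.2 and 35.8 in 5xFAD-P522R and 34.6 and 32.4 in 5xFAD endothelial-gated nuclei, against 27.1 to 37.1 in microglia.

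Genes outside the rule differed as follows, in the same fit, where 20.8% of all genes were called higher and 20.8% lower. Fau, which encodes a small-subunit protein fused to a ubiquitin-like peptide, was higher by 3.66 in endothelial-gated nuclei (SE 0.13, adjusted p = 4.9e-33), and Rack1 by 1.80. Of the 15 genes for elongation factors and other TOP mRNAs, 10 were higher and 0 lower, with Tpt1 at 3.21, Eef1a1 at 2.31 and Eef2 at 2.15. Of 35 ribosome biogenesis genes, which act in the nucleolus, 5 were higher and 12 lower (median −0.38). Of the 77 mitochondrial ribosomal protein genes tested, 18 were higher and 7 lower (median 0.37), near the background for the higher direction. These lists had been written down with earlier results of these data known.

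All 11 tested of the 13 mitochondrially encoded transcripts were higher in endothelial-gated nuclei (median log2 difference 3.69), and they held 0.134% to 0.318% of endothelial UMIs, against at most 0.0538% in the other fitted gates. In single nuclei the share of ribosomal protein UMIs was spread wide. It exceeded 1% in 141 of 360 endothelial-gated nuclei (31.4% to 55.6% per library), against 2.27% of excitatory neurons, 1.33% of mural cells, 0.143% of microglia and 0.190% of oligodendrocytes. The 20 excitatory barcodes over 1% were shallow, with library medians of 753 to 2401 UMIs, against 18460.5 to 25593 in the rest. Mitochondrial transcripts made up 2.36% to 5.66% of their UMIs, against at most 0.00688% in the rest. In the endothelial nuclei over 1%, mitochondrial transcripts made up 0.302% to 0.678% of UMIs per library, against 0.0360% to 0.121% in the rest. The lower endothelial quartile, 0.326%, still lay above the upper quartile of microglia, 0.274%. Oligodendrocyte markers took 550 to 809 CPM in endothelial-gated nuclei, excitatory neuron markers 116 to 1290 with 9 of 10 detected, and T cell markers 0 to 4.94 with 1 of 9 detected. The part of mitochondrial or cytoplasmic RNA in this difference was not tested.

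**Figure D2:**
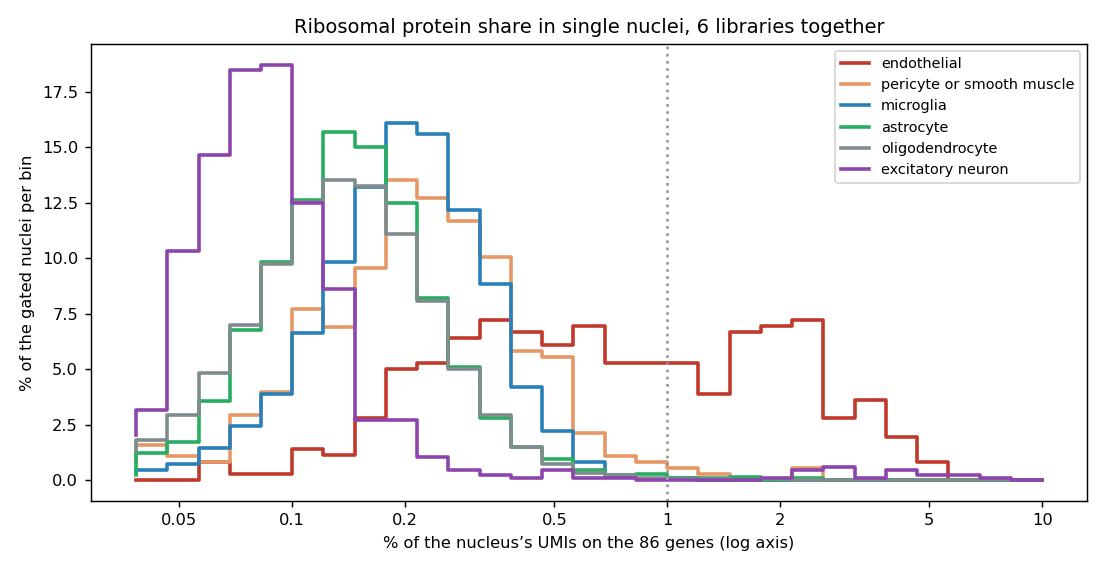
Distribution of the share of UMIs on the 86 genes in single nuclei (log axis) for 6 gates, 6 libraries pooled, as the percentage of a gate's nuclei in each bin; nuclei under the lowest bin are not drawn. Endothelial-gated nuclei reached past 1% (dotted line) in 141 of 360, and the other gates centred below it.

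Among the other 8 gates with at least 20 nuclei in every library, members were compared with the mean of the other 7 types in 1 fit of 15999 genes. In microglia 52 of 83 were higher and 2 lower, where 39.5% of all genes were called higher and 26% lower. The member median was 0.32, against 0.06 over all genes. Astrocytes had 30 higher and 3 lower (35% and 25.5% of all genes), near the background for the higher direction. Oligodendrocytes had 38 higher and 3 lower (38.7% and 26.9%), and mural cells 21 higher and 0 lower (14.9% and 19.6%, member median 0.39 and all-gene median −0.27), with 30 at an unadjusted p under 0.05 in either direction, where 42.1% of all genes had one. Border macrophages had 4 higher and 1 lower (16.7% and 24.8%).

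OPCs had 2 higher and 43 lower (38.1% and 23% of all genes) with a median of −0.24. Inhibitory neurons had 3 higher and 35 lower (30.9% and 22.8%) with a median of −0.34. Excitatory neurons had 2 higher and 68 lower (39.6% and 29.3%) with a median of −0.58. Several of these counts depended on scaling. Without TMM, that is scaled by library totals alone, 6 members were higher and 17 lower in oligodendrocytes and 15 were higher in astrocytes. With RLE size factors the counts were 12 higher and 15 lower in oligodendrocytes, where 27.8% of all genes were higher and 34.7% lower. In microglia they were 21 higher and 7 lower with RLE, where 31.1% of all genes were higher and 34.2% lower, so the count of members higher was below the share of all genes, and DESeq2 called 20 higher and 8 lower. In astrocytes 32 were higher with RLE and in mural cells 30. The median of all genes moved with the scaling too, in excitatory neurons to −0.28 without TMM against 0.06 with it. The members' median less that of all genes was 0.67 in mural cells, 0.36 in border macrophages, 0.25 in microglia, 0.10 in oligodendrocytes, 0.13 in astrocytes, −0.33 in OPCs, −0.36 in inhibitory neurons and −0.64 in excitatory neurons. When the nuclei in the top 5% of UMIs of each library were left out, 238 of 881 excitatory neurons remained and 3 members were lower and 6 higher there. The median excitatory nucleus had 20782 UMIs, against 3988 in oligodendrocytes. Among these alternative counts, the share of all genes is given only for RLE in oligodendrocytes and microglia. The other counts cannot be set against it.

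**Figure D3:**
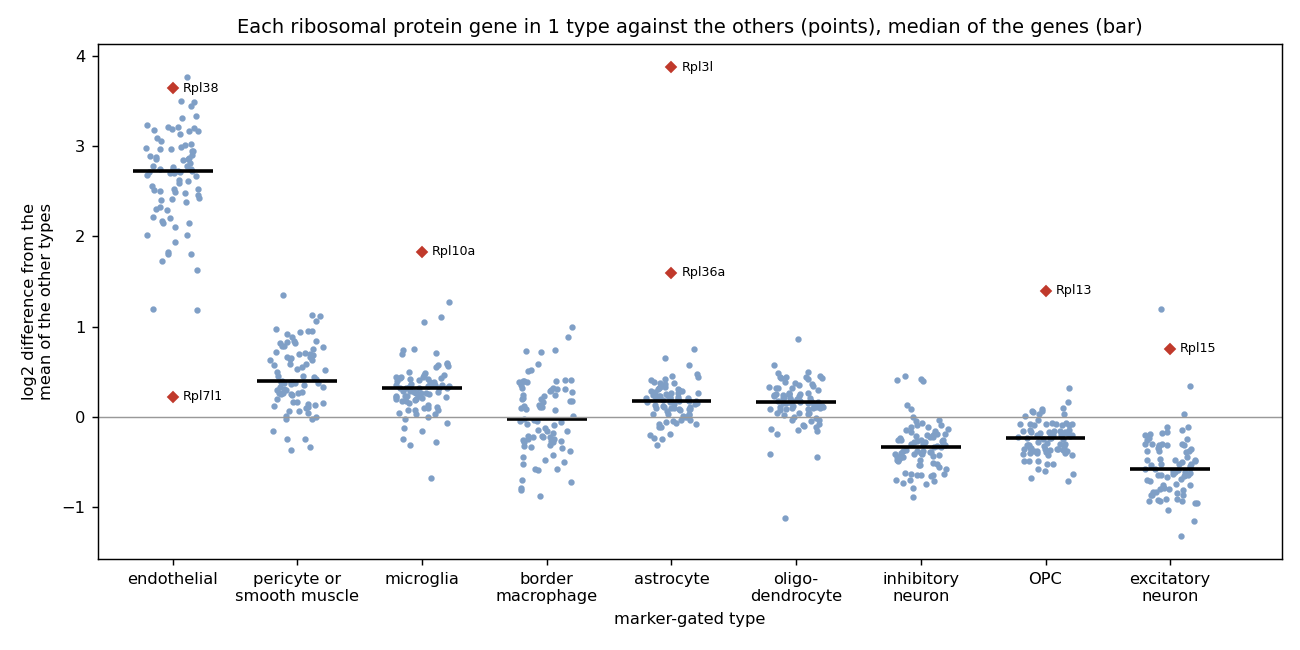
Log2 difference of each tested ribosomal protein gene in 1 marker-gated type from the mean of the other types, with the genes' median as a bar; a gene with no UMI in a gate is not drawn there. The endothelial median was 2.72 and the excitatory neuron median −0.58, and red diamonds mark Rpl10a in microglia, Rpl13 in OPCs, Rpl36a and Rpl3l in astrocytes, Rpl15 in excitatory neurons, and Rpl38 and Rpl7l1 in endothelial-gated nuclei.

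Against this common level, a few members had a pattern of their own. Within 0.5 of the member median on the log2 scale lay 79 of 83 members in oligodendrocytes, 81 in OPCs, 80 in astrocytes and 75 in microglia.

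Rpl10a, a protein of the large subunit at the ribosome's L1 stalk, was the leading member in microglia. It had 79.2 and 70.6 CPM in 5xFAD-M28L, 93.4 and 80.9 in 5xFAD-P522R, and 64.7 and 78.0 in 5xFAD microglia. Oligodendrocytes had 14.2 to 17.6, astrocytes 15.9 to 22.3, OPCs 17.6 to 23.1, excitatory neurons 8.86 to 12.5 and inhibitory neurons 9.40 to 19.5. No microglial library overlapped any library of those gates. Border macrophages had 28.3 to 55.4 and endothelial-gated nuclei 23.9 to 133, which overlapped the microglial values. The log2 difference was 1.83 (SE 0.07, adjusted p = 4.7e-31) and stayed between 1.62 and 2.02 under all 16 alternatives. In oligodendrocytes and excitatory neurons Rpl10a was lower, by −0.42 and −0.93, and the excitatory call was lost without the top 5% of UMIs (−0.43, adjusted p = 0.11).

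Rpl21, Rps9 and Rpl3 were also higher in microglia by more than 1 on the log2 scale, 1.27, 1.11 and 1.05 (adjusted p = 7.1e-19, 7.3e-19 and 6.3e-18). Rps9, a small-subunit protein, had 47.9 to 55.7 CPM in microglia, against 16.5 to 23.5 in oligodendrocytes and 19.8 to 25.8 in astrocytes. Rpl3, which lies at the peptidyl transferase centre, had 44.8 to 55.2 in microglia, against 17.7 to 24.1 in oligodendrocytes. Rpl3 overlaps Syngr1 on the other strand, and Rpl10a a long noncoding RNA, so their reads are separated only if the counting used strand. The paralogs Rpl7l1 and Rpl36al were higher by 0.75 and 0.74, while their relatives Rpl7 and Rpl36a had 0.04 and 0.03 and did not pass. Rpl11, a member of the 5S particle that binds Mdm2, was lower in microglia by −0.28 (adjusted p = 0.0029), and Rpl15 by −0.32 (adjusted p = 0.011). Both calls were lost without TMM, and that of Rpl15 also without 5xFAD replicate 2, 5xFAD-M28L replicate 3 or 5xFAD-P522R replicate 3.

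Rpl13 was higher in OPCs. OPC-gated nuclei had 82.2 and 89.3 CPM in 5xFAD-M28L, 82.8 and 93.6 in 5xFAD-P522R, and 91.7 and 76.5 in 5xFAD, against 31.5 to 48.4 in oligodendrocytes, 31.9 to 56.3 in astrocytes and 41.2 to 58.3 in microglia. The OPC values overlapped none of these, and endothelial-gated nuclei had 251 to 659. The log2 difference was 1.40 (SE 0.06, adjusted p = 7.1e-27), in a gate where 43 members were lower. Rpl13 overlaps Gm20388, a protein-coding gene on the same strand with no row of its own, so strand cannot separate their reads. Rps24, Rpl21 and Rpl3 were lower in OPCs by −0.64, −0.68 and −0.58, and Rps3 by −0.71. Rpl36a had 0.32 in OPCs (adjusted p = 0.037), a call lost under 11 of 16 alternatives.

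Rpl36a and Rpl3l were higher in astrocytes. Rpl36a, X-linked, had 16.9 and 17.9 CPM in 5xFAD-M28L, 13.5 and 25.04 in 5xFAD-P522R, and 16.2 and 18.6 in 5xFAD astrocytes, against 4.46 to 6.95 in oligodendrocytes, 6.43 to 7.98 in OPCs and 6.70 to 10.3 in microglia. Endothelial-gated nuclei had 35.8 to 109. Its log2 difference was 1.60 (SE 0.13, adjusted p = 4.4e-16). Its autosomal paralog Rpl36al did not share this, at −0.20 (adjusted p = 0.26).

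Rpl3l was rare, and its level was highest in astrocytes. It had 90 of its 184 UMIs there, or 3.75 and 3.30 CPM in 5xFAD-M28L, 3.06 and 4.17 in 5xFAD-P522R, and 3.37 and 3.85 in 5xFAD. Oligodendrocytes, with 33134 nuclei, held 20 UMIs, at 0.04 to 0.18 CPM. OPCs had 0.11 to 0.37, microglia 0 to 0.88, excitatory neurons 0.33 to 1.09 and inhibitory neurons 0 to 1.04 CPM. Endothelial-gated nuclei, where Rpl3 had a median of 116 CPM, held 0 Rpl3l UMIs. The astrocyte log2 difference was 3.87 (SE 0.35, adjusted p = 9.6e-14), between 3.14 and 4.48 in the 13 alternatives that kept the gene, whereas Rpl3 had 0.02 in astrocytes. Rpl21 and Rps24 were higher in astrocytes by 0.76 and 0.65. Rps27, Rps6 and Rpl7l1 were called lower there, by −0.24, −0.31 and −0.25, each a call lost under 7 or more alternatives.

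**Figure D4:**
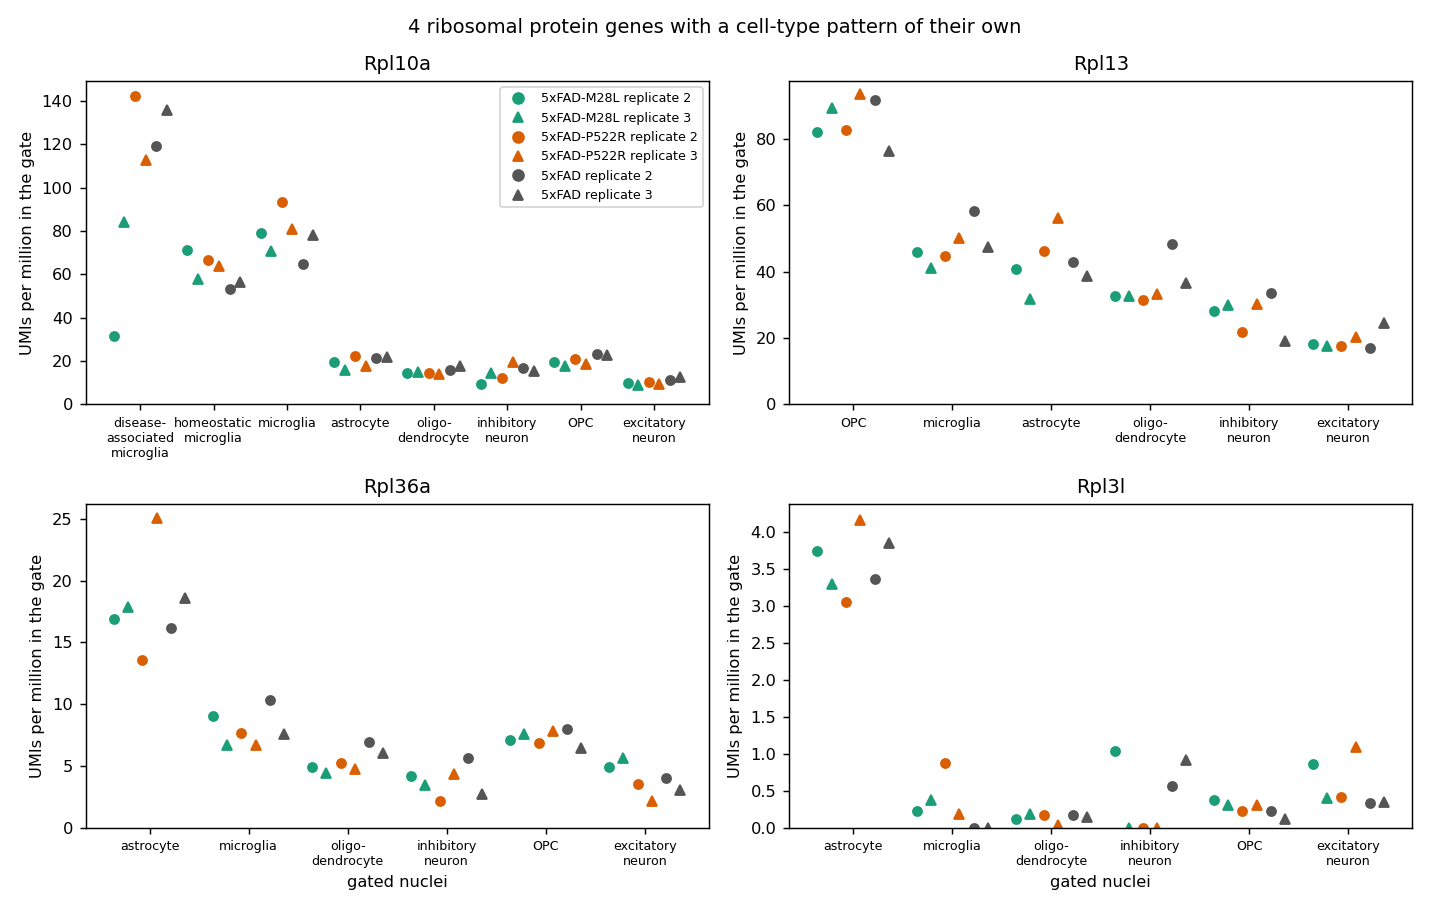
CPM for Rpl10a, Rpl13, Rpl36a and Rpl3l, 1 point per library, coloured by genotype, circles for replicate 2 and triangles for replicate 3. The Rpl10a panel also shows the 2 microglial states; among the 6 types drawn, which leave out endothelial, border macrophage, mural and fibroblast nuclei, Rpl10a was 64.7 to 93.4 in microglia and at most 23.1 in the others, Rpl13 was highest in OPCs, and Rpl36a and Rpl3l were highest in astrocytes.

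In oligodendrocytes Rpl11 led, higher by 0.86 (SE 0.06, adjusted p = 6e-18), and Rps27 and Rpsa were higher by 0.49 and 0.45. Rpl10a, Rpl15 and Rpl22 were the 3 members called lower, by −0.42, −0.45 and −0.19. The call of Rpl22 was lost with the stricter gate (−0.08, adjusted p = 0.32), without a library block and without 5 of the 6 libraries in turn, and that of Rpsa without the top 5% of UMIs (0.17, adjusted p = 0.065). Rpl15 ran the other way in neurons. It was higher by 0.75 in excitatory neurons (SE 0.11, adjusted p = 2.4e-08; 0.41 to 1.03 over the alternatives, past the threshold in each) and by 0.45 in inhibitory neurons (adjusted p = 0.0093, and 0.051 without 5xFAD replicate 3), and it had 18.9 to 26.6 CPM in excitatory neurons against 9.67 to 16.9 in oligodendrocytes. Rpl15 overlaps Nkiras1 on the other strand. Rpl27a was the other member higher in excitatory neurons, by 0.34, a call lost without TMM and with the stricter gate. Rpl18, Rpl13 and Rplp1 were lower there by −1.32, −0.96 and −0.94, but without the top 5% of UMIs the values were −0.05, 0.09 and 0.28 and none passed (adjusted p = 0.95, 0.67 and 0.36). In inhibitory neurons Rpl30 was higher by 0.40, a call lost without 5xFAD-M28L replicate 3 (0.28, adjusted p = 0.068). In mural cells Rps16 and Rpl26 were higher by 1.35 and 1.12. In border macrophages Rps29, Rps6, Rpl18 and Rps9 were higher by 1.00, 0.88, 0.73 and 0.72 and Rpl11 lower by −0.81. The Rps29 call was lost without 5xFAD-M28L replicate 2 (0.68, adjusted p = 0.11), and each of the others was lost without at least 1 of the libraries.

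The other ribosomal and translation genes partly followed. In microglia Fau and Rack1 were higher by 0.73 and 0.63, and 19 of 27 initiation factor genes were higher and 2 lower (median 0.36), where 39.5% of all genes were higher. In excitatory neurons 24 of 35 ribosome biogenesis genes were higher and 3 lower (median 0.39), where 39.6% of all genes were higher, and 68 ribosomal protein genes were lower. Mitochondrial ribosomal protein genes were near 0 there, with a median of −0.02 over 77. Over the 8 gates, the genes whose mean log2 level ran most like the members' summed level were Fau (Pearson r = 0.996), Ywhae (0.994), Crebbp (0.990), Ndufa7 (0.988) and Gbe1 (0.986), of 10982 genes compared. These gates share libraries and differ in depth, so the values describe and test nothing.

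Microglia were divided further by markers of 2 states. Disease-associated-gated nuclei had at least 3 of 15 disease-associated markers and a larger share of them than of homeostatic ones. Homeostatic-gated nuclei had at least 3 of 13 homeostatic markers and at most 1 of the other list. Disease-associated-gated nuclei made up 1.34% to 14.5% of a library's microglia. 5xFAD-M28L replicate 2 had only 15 such nuclei and was left out of the test, which used 5 libraries.

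Rpl10a was higher again in disease-associated-gated microglia, the 1 member to pass the threshold. In 5xFAD-M28L replicate 3 it had 84.2 CPM in disease-associated-gated and 57.7 in homeostatic-gated nuclei. In 5xFAD-P522R the values were 142 and 113 in disease-associated-gated and 66.6 and 63.8 in homeostatic-gated nuclei. In 5xFAD they were 119 and 136 in disease-associated-gated, against 53.1 and 56.4 in homeostatic-gated nuclei. The values of the 5 libraries did not overlap between the states. In the library left out, 31.6 in disease-associated-gated stood against 71.4 in homeostatic-gated nuclei, the first from 15 nuclei. The log2 difference was 1.02 (SE 0.15, adjusted p = 1.6e-06), and it stayed between 0.93 and 1.12 and past the threshold in every alternative, that with all 6 libraries included.

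No other member passed. Of 77 members tested 1 was higher and 0 lower, where 12.1% of the 9343 genes were called higher and 11.9% lower. The member median was 0.21, against −0.01 over all genes, and 60 of 77 were above 0. Rpl27a and Rpl41 had 0.49 and 0.47 (adjusted p = 0.065 and 0.077). Rps9, higher in microglia as a whole, had −0.42 (adjusted p = 0.092). Among related genes Eef1a1 was higher by 0.45 (adjusted p = 0.025), and Fau and Rack1 had −0.24 and 0.08 and did not pass. With the stricter gate 2 members were higher and 1 lower, and without 5xFAD-P522R replicate 2 there were 3 higher. The share of all genes called in those fits is not given here, so these counts cannot be set against it. The summed share was 0.207% to 0.265% in disease-associated-gated and 0.182% to 0.249% in homeostatic-gated nuclei.

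The variants of phospholipase C-γ2, a signalling enzyme that cortical microglia express, were compared within each gate. The members' median lay below 0 for both variants in oligodendrocytes, OPCs, microglia and both neuron gates. No single member passed the threshold in any of the 24 comparisons (8 gates by 3 contrasts). These were edgeR fits of all 6 libraries, with the low-count filter and without a replicate block. In them 0% to 0.293% of all genes were called in a direction. Other settings did call members, counted over the gates. With no low-count filter there were 2 for M28L and 21 for P522R, in 671 member tests each. A replicate block gave 9 and 36, in 502 each. The share of all genes called in those 2 settings is not given here. The M28L and P522R comparisons share the 5xFAD libraries and are not independent. An exact permutation test of 2 libraries against 2 cannot go below p = 0.333 and was not used.

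Most members at an unadjusted p under 0.05 were found in oligodendrocytes. Their ribosomal protein share was 0.135% and 0.129% in 5xFAD-M28L and 0.130% and 0.124% in 5xFAD-P522R, against 0.186% and 0.151% in 5xFAD. Both variants lay below both 5xFAD libraries. The members' median log2 difference was −0.35 in M28L and −0.40 in P522R, with 82 of 83 members below 0 in each, against medians of −0.01 and 0.01 over the 16071 genes tested. None was called (0% of all genes were called higher and 0% lower). At an unadjusted p under 0.05 there were 46 members for M28L and 58 for P522R, where 13.2% and 12.8% of all genes had such a p. DESeq2 called 0 members for M28L and 7 for P522R. The share of all genes that it called is not given here, so the 7 cannot be set against it.

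Rpl34 illustrates the pattern. It had 11.99 and 11.45 CPM in 5xFAD-M28L, 9.46 and 9.57 in 5xFAD-P522R, and 18.1 and 14.7 in 5xFAD oligodendrocytes, with a P522R difference of −0.78 (SE 0.13, adjusted p = 0.18). Rpl23 had 14.9 and 13.9 in 5xFAD-M28L, 12.98 and 12.83 in 5xFAD-P522R and 20.6 and 18.6 in 5xFAD, with −0.41 for M28L (adjusted p = 0.31) and −0.60 for P522R (adjusted p = 0.18). Rpl37a, Rps14 and Rps24 had −0.83, −0.52 and −0.48 for P522R. For M28L, Rpl24, Rps13 and Rpl27a had −0.50, −0.49 and −0.43. The 78 mitochondrial ribosomal protein genes had −0.15 and −0.08, and the elongation and other TOP mRNAs −0.05 and −0.09.

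One library weighed on this. 5xFAD replicate 2 had the highest share in oligodendrocytes, OPCs, microglia and both neuron gates, and its oligodendrocytes had a median of 3155 UMIs per nucleus, against 3977 to 4426 in the other 5 libraries. Without it the oligodendrocyte medians were −0.18 for M28L and −0.27 for P522R, with 80 and 82 of 83 members below 0, and 8 and 22 members at an unadjusted p under 0.05, where 5.85% and 5.92% of all genes had one. Without 5xFAD replicate 3 the medians were −0.50 and −0.55. Mitochondrial transcripts took 0.0115% and 0.00915% of oligodendrocyte UMIs in 5xFAD-M28L, 0.00838% and 0.0098% in 5xFAD-P522R, and 0.0112% and 0.0133% in 5xFAD. The 5xFAD-P522R values thus also lay below both 5xFAD values, while those of 5xFAD-M28L overlapped them. The part of depth or of this library in the shift was not tested further.

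The other gates had fewer members at an unadjusted p under 0.05. In microglia 0.00724% of all genes were called lower for M28L and 0.0145% for P522R, and no member. The median was −0.20 for M28L and −0.25 for P522R over 82 members, with 5 and 10 members at an unadjusted p under 0.05 where 6.02% and 9.74% of all genes were, near the background. Without 5xFAD replicate 2 these medians were −0.08 and −0.11. In OPCs the medians with all libraries were −0.20 and −0.28, with 11 and 19 of 82 members at an unadjusted p under 0.05, where 11.9% and 10.8% of all genes had one. Without 5xFAD replicate 2 the OPC medians were −0.08 and −0.14. With all libraries they were −0.26 and −0.54 over 73 members in inhibitory neurons and −0.12 and −0.22 in excitatory neurons. Astrocytes had a median of −0.14 for M28L and 0.11 for P522R. In border macrophages 2 members passed the count filter and in mural cells 16, and 0 were called (for M28L in border macrophages, 0.0283% of all genes were called higher and 0.0283% lower). The astrocyte gate of 5xFAD-P522R replicate 3 had 128 nuclei, the highest member share of that gate, 0.210%, and the highest mitochondrial share, 0.0538%. The difference of the variant effect between microglia and oligodendrocytes was tested in 1 fit of 16940 genes, and 0 of 83 members passed for M28L, P522R or P522R against M28L, with 2, 5 and 1 members at an unadjusted p under 0.05, where 4.93%, 5.63% and 6.81% of all genes had one.

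No member passed the threshold between P522R and M28L. The member median of P522R less M28L was −0.07 in oligodendrocytes, −0.01 in microglia, −0.07 in OPCs and 0.23 in astrocytes, with 3, 0, 4 and 6 members at an unadjusted p under 0.05, where 6.84%, 8.34%, 5.39% and 6.02% of all genes had one, and 0 called by DESeq2. Among the members, the X-linked Rpl10 had the smallest unadjusted p in oligodendrocytes and astrocytes, with −0.42 (adjusted p = 0.65) and −0.72 (adjusted p = 0.83). Rpl10a had a log2 difference from 5xFAD of 0.27 for P522R (adjusted p = 0.54) and 0.09 for M28L (adjusted p = 0.91) in the microglia gate, and neither passed.

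**Figure D5:**
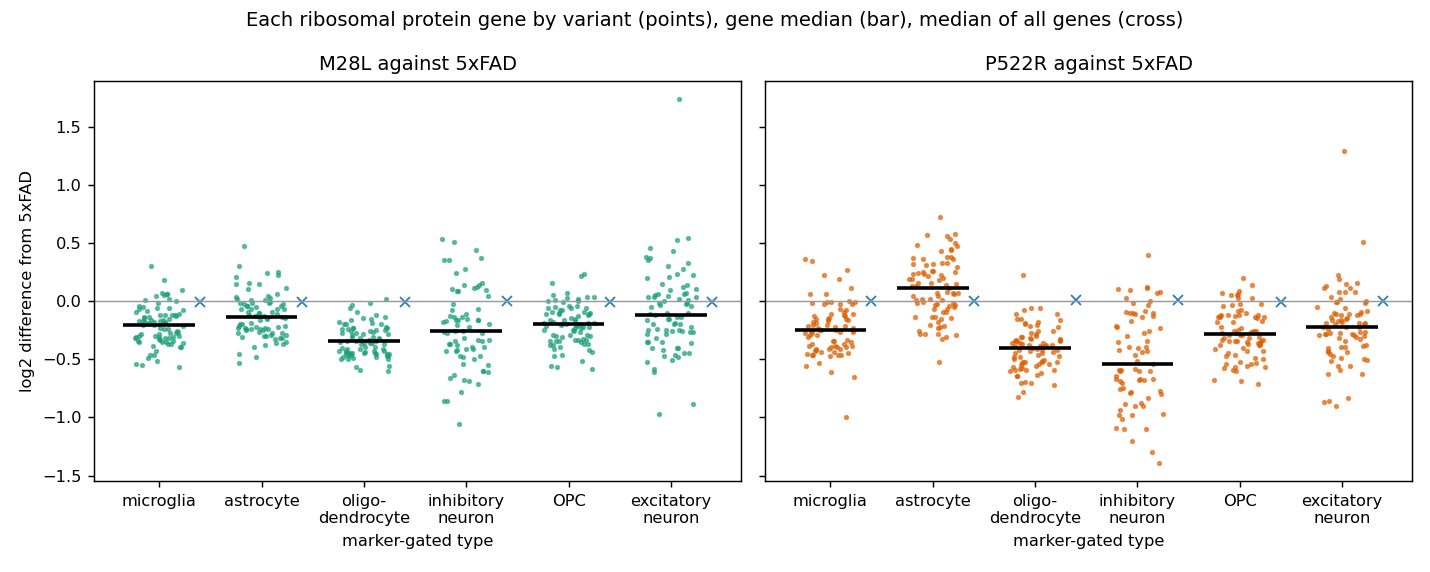
Log2 difference from 5xFAD of each tested ribosomal protein gene in 6 marker-gated types, M28L on the left and P522R on the right, with the genes' median as a bar and the median of all genes as a cross. In oligodendrocytes 82 of 83 points lay below 0 for each variant, and no point of any gate passed the adjusted threshold.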

How the data were processed

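The deposited files hold raw UMI counts per gene and barcode for 6 libraries. The authors made these counts with Cell Ranger 6.1.2 on mm10, per the submitters' processing notes; per the file headers, 5xFAD-P522R replicate 3 came from version 5.0.1. Whether introns were counted, and whether strand was used, is not given in the sources used here. Depth was 53326947 to 72288942 UMIs per library, and every barcode held at least 500. No further filter and no doublet caller was applied; a nucleus was gated only where its leading type passed the others by the gate's margin, so markers of a second type can remain in gated nuclei. The markers were fixed before the gate's scoring rule, which was set after the files had been looked at. The members and gene lists were chosen with earlier results of these data known.

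UMIs were summed per library and gate and tested with edgeR 4.0.16 (R 4.3.3) by the quasi-likelihood test, with TMM scaling, filterByExpr at a minimum count of 10, and Benjamini-Hochberg adjustment over all genes tested. Types and microglial states were fitted with the library as a block, genotypes within each gate without one. Gates needed 20 nuclei in every library, except 10 in the added endothelial fit. Fold changes are on the log2 scale, and levels are CPM (UMIs of a gene scaled to a common total per gate and library), which are not comparable between genes. Alternatives used RLE or no TMM scaling, other count filters, DESeq2 1.42.0, other nucleus filters, a stricter gate and each library left out. The scripts were tested on simulated data. Genes named follow 1 rule: up to 12 members past the threshold in each direction by smallest p, filled by unadjusted p to 5 where fewer passed, and in every comparison Rplp0, Rplp1, Rplp2, Rpsa, the X-linked members, those with a close relative of the same stem, Rpl41 and Rps19bp1. A member named outside it, such as one given in a second cell type, was chosen after its values were seen. Promoter sequences are from RefSeq on GRCm38.p6. Some members and related genes are not reported here.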

Additional observations from a re-analysis of the deposited data

Results flagged for a closer look

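Of 64 groups of 6 libraries looked at, 4 had a highest library standing apart from the rest by Dixon's gap ratio, where chance gives about 1 in 20. The ribosomal protein share in OPCs had a gap ratio of 0.776, with 5xFAD replicate 2 at 0.139% and the other 5 libraries at 0.107% to 0.114%. Rps29 in OPCs had 0.687, with 23.6 CPM in 5xFAD replicate 2 and at most 16.6 in the others. Rpl15 in oligodendrocytes had 0.7102, again from 5xFAD replicate 2. Rps24 in astrocytes had 0.722, from the 128 nuclei of 5xFAD-P522R replicate 3 at 68.9 CPM, against at most 43.1 in the others.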

How the results depend on the processing

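Of 237 recomputed counts of called members, 203 stayed within 1.5 times the reported count. These include the variant comparisons, whose reported count is 0 and where a recomputed 0 is taken as unchanged. The cause of the counts that moved further was not tested. Apart from RLE in oligodendrocytes and microglia, above, the share of all genes called is not given for these settings or with a library left out. The counts below cannot be set against it. Members called higher in oligodendrocytes (38 reported) were 12 with RLE, 6 without TMM, 23 at a minimum count of 50, 10 with DESeq2, 12 without the top 5% of UMIs and 23 with no library block. In microglia (52) they were 21, 20 and 29 with RLE, DESeq2 and without the top 5%. In astrocytes (30) they were 15 without TMM and 4 without the top 5%. In border macrophages (4) they were 7, 20, 7 and 8 with RLE, without TMM, at a minimum of 50 and with DESeq2. In mural cells (21) they were 44 without TMM and 34 with DESeq2. Members called lower were 72 in OPCs (43) without TMM and 3 in excitatory neurons (68) without the top 5%. Summed over gates, members called for M28L (0) were 2 with no low-count filter and 9 with a replicate block, and for P522R (0) 21, 36 and, with DESeq2, 7. Between the microglial states (1) they were 2 at a minimum of 50, 3 with the stricter gate and 2 with all 6 libraries.

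Leaving out 1 library at a time gave 27 to 44 members in oligodendrocytes, 43 to 57 in microglia, 25 to 34 in astrocytes, 2 to 4 in border macrophages, 14 to 22 in mural cells, 34 to 43 in OPCs, 61 to 70 in excitatory neurons, 24 to 33 in inhibitory neurons, 80 to 82 in endothelial-gated nuclei, 1 to 3 between states and 0 to 3 for P522R. Directions reversed for Rpl27a in excitatory neurons without TMM (−0.0071), and for Rpl13 and Rplp1 there without the top 5% (0.090 and 0.28). Replicate numbers 2 and 3 are shared by the groups, but no label says that they pair the samples and there are 2 pairs only. The block is therefore given as an alternative only. Same-numbered libraries did deviate together in several gates. Correlations over genes were 0.43, 0.41 and 0.33 in oligodendrocytes and 0.28 to 0.39 in OPCs. They were 0.10 to 0.35 in astrocytes, 0.16 to 0.27 in microglia and 0.14 to 0.26 in excitatory neurons. Border macrophages had 0.0145 to 0.0959 and mural cells 0.0279 to 0.0821. Inhibitory neurons had −0.0855, 0.23 and −0.0828. The stricter gate could not be fitted for border macrophages, mural cells, inhibitory neurons or endothelial-gated nuclei, which left too few nuclei.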

Other observations

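The 5 rows with -ps in the symbol, left out by the rule, held 480 UMIs, or 0.0837% of the members' UMIs. Of the 9224 nuclei in no gate, 3.94% had more than 1% of their UMIs on the 86 genes.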
